A study of Mus musculus with 2 samples.

Results

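Small RNA libraries of mouse embryonic stem cells held many abundant tags that no annotated transcript contained letter for letter. A tag is 1 distinct read sequence with its number of reads. The tags described here were 20 to 24 nt long, had at least 2000 reads summed over both libraries, and matched no GENCODE M21 transcript perfectly over their whole length. Of 1306 tags of this size and abundance, 878 met that rule and 428 did match. All tags of 20 to 24 nt numbered 826850, and both libraries held 1695245 distinct tags in all. Tags that shared their first 18 bases were merged, which gave 504 groups, numbered here by their rank in summed reads. Of these groups, 293 held a single tag and the largest held 6. The tags were chosen by their reads summed over both libraries, so their abundance is a description and not a finding. The tag nearest inside the limit had 2000 reads (1102 in DMSO and 898 in PD03), and the nearest outside had 1999 (1093 and 906).

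The cells were J1 mESCs, a mouse embryonic stem cell line, kept on gelatin without feeders in medium with knockout serum replacement and 1000 U/mL LIF. One culture condition received 1 μM PD0325901 (PD03), an inhibitor of the kinase MEK, and the control an equal volume of its solvent DMSO (0 μM PD0325901), both for 24 h. RNA of 3 independent experiments was pooled per treatment, so that each treatment had 1 library and no replicate. The DMSO library held 18870345 clean reads and the PD03 library 20944808. No test between treatments was possible. Each ratio below is PD03 over DMSO in RPM (clean reads scaled to a common library size of 1e6), with a Clopper-Pearson 95% interval that covers counting error only. The stem cell label was checked with perfect matches to miRNA hairpins. The miR-290-295 cluster, which marks mouse embryonic stem cells, stood at 33058 RPM in DMSO and 28351 RPM in PD03. Hairpins of muscle (Mir1a and Mir133a) stood at 157 and 166 RPM, of liver (Mir122) at 2.91 and 2.01 RPM, and of blood (Mir451a and Mir142) at 16.5 and 15.9 RPM. The neural Mir124 and Mir9 stood at 278 and 493 RPM, and let-7, known to rise with differentiation, at 9927 and 9402 RPM.

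A size-selected small RNA library holds more than miRNAs. Dicer and Drosha cut miRNAs from hairpins, and terminal transferases can then add A or U to their 3′ ends. Ribosomal RNA and tRNA, the most abundant RNAs of a cell, also leave fragments of this length. A mature tRNA carries a CCA end that is added after transcription and is absent from its gene. Bases of tRNA are heavily modified, and reverse transcriptase can misread some of those bases. Each of these features gives tags that differ from the annotated letters.

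The sequences of the 15 groups with the most reads are shown first, because these groups held 43.7% of the member reads. For each, the most frequent tag is written 5′ to 3′ in lower case. Capitals mark the bases after the first 18, at which merged tags ended differently. In groups 4, 13 and 14, the capital marks the single base that differed from the nearest transcript.

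Group 1: aggtgtagaataagtgggAGGCCC
Group 2: ccgacttagaactggtgcGGA
Group 3: cgtgggaaatgtggcgtaCGGAAG
Group 4: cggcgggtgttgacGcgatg
Group 5: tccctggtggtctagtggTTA
Group 6: tccggagtggcggagatgGGCG
Group 7: tttgactggggcggtacaCCT
Group 8: cgcgacctcagatcagacGTG
Group 9: agtttgactggggcggtaCACCTG
Group 10: aattgcaggacacattgaTCATCG
Group 11: ggttccatggtgtaatggTTAGCA
Group 12: acttcgggataaggattgGCT
Group 13: tgaaTtgcaggacacattga
Group 14: aaagtcggagGttcgaagacg
Group 15: ccggagtggcggagatggGCG

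From general knowledge, the letters of groups 1 to 4, 6 to 9, 12 and 15 are those of the large-subunit rRNA. Groups 10 and 13 have letters of the small rRNA that pairs with the large one, and group 14 those of the small-subunit rRNA. Groups 5 and 11 begin like the 5′ ends of a glutamate and a glutamine tRNA. The GENCODE set used here has no nuclear tRNAs and no long rRNA precursor, and no other sequence of these RNAs was matched, so these origins were not tested.

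The unmatched tags were a large part of the reads of their size class in both libraries. They took 5543563 of 11893980 reads of 20 to 24 nt in DMSO, or 46.6%, and 5023004 of 10900204 in PD03, or 46.1%. As a share of all clean reads they fell from 29.4% to 24.0%, which is a summed ratio of 0.816 (0.815 to 0.817). The 428 matched tags gave 0.841 (0.840 to 0.842), and all reads of 20 to 24 nt gave 0.826. The members thus moved nearly as the size class did. Reads were concentrated in few groups: the top 10 groups held 38.6% of the member reads and the top 50 held 62.3%.

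Over the 504 groups the median ratio was 0.820 (log2 -0.29), beside 0.860 over the 232 groups of matched tags and 0.827 over all 713 groups of this size and abundance. The middle part of the groups lay between 0.677 and 0.996 (quartiles), and the whole range was 0.338 to 4.38. A ratio under 1 was found in 380 groups and over 1 in 124, and in 62 groups the counting interval included 1. At a fold of 1.5, 28 groups were higher in PD03 (5.56%), beside 4.63% of all 713 groups. At the same fold 113 groups were lower (22.4%), beside 21% of all groups. Both shares were near those of all 713 groups, but most of these are made of the members themselves, so the shares had to lie close. The split depended on the denominator: per read of 20 to 24 nt in place of per clean read, 51 groups were higher and 37 lower, and the median log2 ratio was -0.01 in place of -0.29. On that scale 255 groups had a ratio under 1, and every ratio above 0.826 given below would lie above 1.

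Library composition by length moved along with these values. Over all clean reads, the ratio was 0.770 at 20 nt, 0.763 at 21 nt, 0.818 at 22 nt, 0.871 at 23 nt and 0.899 at 24 nt, then 1.11 at 26 nt, 2.39 at 29 nt and 11.6 at 32 nt. The authors gel purified the small RNA for each library, and a difference in that step and an effect of the inhibitor cannot be told apart with 1 library each. The members followed the same order, with median ratios of 0.726 at 20 nt, 0.744 at 21 nt, 0.787 at 22 nt, 0.815 at 23 nt and 0.864 at 24 nt. The matched tags went from 0.659 at 20 nt to 0.932 at 24 nt. Base composition moved with the ratio too: 91 groups of at least 75% GC had a median ratio of 0.923 and 78 groups under 45% GC one of 0.769. Across the 504 groups, Spearman's rho of GC and ratio was 0.21, given as a description, since groups share both libraries and often a source.

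Among the rRNA-like groups, group 1 alone took 47468 RPM in DMSO and 40946 RPM in PD03. Its 895730 and 857602 reads gave a ratio of 0.863 (0.860 to 0.865). The ratio hid a steep order by 3′ end. The 20-nt tag had 30085 reads in DMSO and 8286 in PD03 (ratio 0.248), and the 21-nt tag 36634 and 10404 (0.256). The 24-nt tag, with 779779 and 818572 reads, stood at 0.946. Counting every tag with the same first 18 bases, the ratio reached 1.15 at 27 nt, 1.68 at 28 nt and 3.60 at 30 nt. The 24-nt end took 53.7% of these reads in DMSO and 50.6% in PD03.

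The same source gave both some of the lowest and some of the higher ratios, depending on where a tag began and ended. Group 1 belonged to a family of 25 members in 8 groups that overlap by at least 18 bases. Its members that began 1 or 2 bases upstream (groups 292 and 77) had the 2 lowest ratios of all 504 groups, and a group that began 5 bases downstream (group 170) had 1.46 (1.40 to 1.52). Their most frequent tags are shown because they come from 1 stretch and differ only in their ends, with capitals for the bases after the first 18:

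Group 292: gaggtgtagaataagtggGAGG
Group 77: agaggtgtagaataagtgGGAGG
Group 1: aggtgtagaataagtgggAGGCCC
Group 170: tagaataagtgggaggccCCCG

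Group 292 had 3338 reads in DMSO and 1252 in PD03, a ratio of 0.338 (0.316 to 0.361). Group 77 had 19879 and 7653 reads, a ratio of 0.347 (0.338 to 0.356). Low values did not extend to longer tags with the same start. With the first 18 bases of group 77, tags of 26 nt had 110880 and 141484 reads (1.15), and tags of 30 nt 9038 and 34268 (3.42).

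Groups 2 and 3 had tight 3′ ends and were lower in PD03 per clean read, group 3 only as much as all reads of 20 to 24 nt (0.826). Group 2 went from 14175 to 10170 RPM, a ratio of 0.717 (0.713 to 0.722), and 73.6% of the reads with its first 18 bases ended at 21 nt in DMSO, 75.4% in PD03. Group 3 went from 11678 to 9622 RPM, 0.824 (0.819 to 0.829), with 77.0% and 74.7% of reads ending at 24 nt. Group 12 had the most uniform end of the 15 largest groups: 92.8% of DMSO reads and 88.2% of PD03 reads stopped at 21 nt, and the level went from 3480 to 2244 RPM, a ratio of 0.645 (0.637 to 0.652).

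Groups 6, 7, 9 and 15 stood within 10% of even. Groups 7 and 9 overlap, since group 9 begins 2 bases upstream of group 7, and groups 6 and 15 overlap by all but 1 base. Group 7 had 4891 RPM in DMSO and 4579 RPM in PD03 (0.936, 0.928 to 0.945), and group 9 had 3067 and 3149 RPM (1.03, 1.02 to 1.04). Group 6 had 4863 and 4739 RPM (0.974, 0.966 to 0.983), and group 15 had 2593 and 2393 RPM (0.923, 0.911 to 0.935). The even value of group 6 again joined unequal ends, with 0.531 at 20 nt and 1.12 at 22 nt.

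Group 8, whose letters are known as the 5′ start of the large-subunit rRNA, changed in its ends more than in its level at 20 to 24 nt. It went from 5534 to 3728 RPM, a ratio of 0.674 (0.667 to 0.680). The 21-nt end held 53.4% of the reads with these first 18 bases in DMSO and 32.2% in PD03. A 32-nt end held 1.33% in DMSO, from 1981 reads, and 21.5% in PD03, from 38133 reads. That 32-nt ratio, 17.3 (16.6 to 18.2), stood above the 11.6 of all clean reads of 32 nt. The latter include these tags, which were 1981 of the 5913 DMSO reads and 38133 of the 76321 PD03 reads of 32 nt.

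Groups 10 and 13 come from 1 stretch, offset by 2 bases. Group 10 went from 3446 to 2653 RPM, a ratio of 0.770 (0.761 to 0.779), and group 13 from 3245 to 2180 RPM, 0.672 (0.664 to 0.680). Group 13 differed from n-R5-8s1, the annotated transcript of the small rRNA paired with the large one, by C5T, counted from the 5′ end of the tag with the reference base first. The tag with the reference base had 1 read in DMSO and 4 in PD03, against 16916 and 12485 reads of the tag as shown.

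Tags with letters like tRNA 5′ ends, an origin that was not tested, were among the largest and the lowest groups. Group 5, the glutamate-like one, went from 9534 to 5667 RPM, a ratio of 0.594 (0.590 to 0.599). Its tags of 21 nt stood at 0.525 and those of 24 nt at 0.736. Longer tags with the same first 18 bases went the other way: 56232 reads in DMSO and 192059 in PD03 at 29 nt (3.08), 5927 and 44637 at 30 nt (6.79), and 562 and 71205 at 31 nt (114, 105 to 124). The 29-nt end held 19.2% of these reads in DMSO and 38.2% in PD03. Over all clean reads of 29, 30 and 31 nt the ratios were 2.39, 4.53 and 8.73, so that the 31-nt value stood far above its size class. That class includes these tags, which were 562 of its 26174 DMSO reads and 71205 of its 253479 PD03 reads.

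Group 11, the glutamine-like one, went from 3248 to 2762 RPM, a ratio of 0.850 (0.841 to 0.860). Its reads ended at 24, 25 and 26 nt with ratios of 0.972, 1.09 and 1.35. A serine-like 5′ end (group 378) was among the 5 lowest, with 2176 reads in DMSO and 922 in PD03, or 0.382 (0.353 to 0.413). An alanine-like 5′ end (group 53) differed from a transcript of Arhgef7 by G9A, and only 1 and 2 reads carried the reference base.

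The shift toward longer ends was found in most groups with enough longer reads. The minimum of 200 reads was applied to the longer reads themselves, summed over both libraries. Groups with many such reads in PD03 thus passed it more easily, and the counts below are a description of those that passed. Of 184 groups with at least 200 reads of 28 to 32 nt that shared their first 18 bases, 178 had a higher ratio at that length than at 20 to 24 nt, and 121 reached 1.5. The median ratio of these 184 groups was 1.83 at 28 to 32 nt and 0.755 at 20 to 24 nt. Matched tags did the same, with 52 of 53 groups higher and medians of 1.76 and 0.738. At 25 to 27 nt, 251 of 306 unmatched groups were above their ratio at 20 to 24 nt. At 18 to 19 nt 202 of 346 groups were. Within the 20 to 24 nt range, the longest tag was above the shortest in 36 of 48 groups of at least 4 tags. All reads of 28 to 32 nt had a ratio of 2.38, so the size class as a whole moved with these values.

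A set with letters like tRNA 3′ ends was defined by its first and last bases. There were 23 members that began with TC and ended with CCA, and 22 of these were 22 nt long. None of the 428 matched tags had this form. In a tRNA, a stretch of this kind would start in the T loop and run through the CCA end, but no tRNA sequence was matched here. Together they had 87970 reads in DMSO and 93118 in PD03, a ratio of 0.954 (0.945 to 0.963), and single tags ranged from 0.718 to 1.31. All members that ended in CCA numbered 39 (4.44%), beside 8 of the matched tags (1.87%), with ratios of 0.878 (0.872 to 0.884) and 0.882 (0.862 to 0.903).

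The fourth base of these 22-nt tags was mixed. In 15 of the places where at least 10% of reads had another base, that place was the fourth base of a 22-nt tag from TC to CCA. The tags below are shown because they differ in the amount of each base there, and the capital marks the mixed base in its most frequent form:

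Group 37: tcgTttccggctcgaaggacca
Group 108: tcgTaaccgggcggaaacacca
Group 114: tcgTttcccggccaacgcacca
Group 329: tcgAatcctgccgactacgcca

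At this place in group 108, T made up 44.1% of reads in DMSO and 42.8% in PD03, A 41.3% and 43.0%, and G 13.5% and 13.1%. In group 37, T made up 89.6% and 89.7% and A 9.11% in both. In group 114, T made up 70.8% and 72.5% and A 28.2% and 26.6%. In group 329, A led with 59.9% and 61.1%, and T made up 31.5% and 30.2%. The mix thus varied much between tags and little between libraries. The adenosine at this place of the T loop is methylated in many tRNAs, and reverse transcriptase is known to misread it. Whether that gave the mix was not tested.

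A tryptophan-like 3′ end showed the same place in a shorter and a longer form:

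Group 32, 20 nt: ttcaTatcacgtcggggtca
Group 32, 23 nt: ttcaTatcacgtcggggtcacca
Group 102, 20 nt: ttcaGgtcacgtcggggtca

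In the 20-nt form of group 32, the marked base was T in 43.9% of DMSO and 43.6% of PD03 reads, G in 32.0% and 30.9%, and A in 21.5% and 22.9%. With CCA added, T made up 41.9% and 40.3%. The form without CCA was the more frequent one, with 23521 reads in DMSO and 17792 in PD03 against 4661 and 3794. Their ratios were 0.682 and 0.733. The tags of group 32 belonged to a family of 12 members whose joint ratio was 0.705, and group 102 to one of 4 members at 0.709.

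Mixed bases also occurred in tags that did not end in CCA. Of the 878 members, 106 (12.1%) had a place with at least 10% other bases outside the last 3 bases, beside 34 of 428 matched tags (7.94%). Taking the most frequent form of each, 98 such places remained, of which 33 were in tags that ended in CCA. The ninth base of group 11 was G in 86.5% of DMSO and 86.3% of PD03 reads, T in 9.27% and 9.06%, C in 2.55% and 2.86% and A in 1.72% and 1.75%. A guanosine at the ninth place is methylated in several tRNAs, but whether that gave this mix was not tested. Tags near let-7 hairpins had mixed places too, and tags of related genes that differ at 1 base would count here. The places were not sorted by cause. In 95 of the 98 places no base differed by 5 percentage points or more between the libraries, and the largest difference was 8.30 points.

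Near matches were found for 68 groups, which held 10.9% of the member reads and had a summed ratio of 0.880 (0.877 to 0.883). The other 436 groups, with 89.1% of the reads, gave 0.809 (0.808 to 0.810). Of the latter, 26 were higher (5.96%) and 103 lower (23.6%) at the fold of 1.5, beside 5.56% and 22.4% of all 504 groups. The 436 groups are most of those 504, so these shares had to lie close. Of the 68 groups with a near match, 2 were higher and 10 lower. A mismatch at the last base occurred in 25 groups (0.904, 0.897 to 0.912), and at another base in 30 groups (0.872, 0.869 to 0.876). A 3′ part of at least 18 bases matched in 7 groups (1.02, 1.00 to 1.04). A 5′ part matched inside a transcript in 3 groups (0.741, 0.726 to 0.757). The RefSeq promoter window of Gm46404 held 3 groups (0.916, 0.894 to 0.939). No member matched a RefSeq miRNA perfectly, and 73 members matched a transcript on its opposite strand. The group with the most reads in each class other than no match and a mismatch at another base is shown, with the capitals for the bases that did not match, or in group 140 the bases after the first 18:

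Group 89, Mir320, last base: aaaagctgggttgagagggcgaT
Group 109, Mir127, 5′ part: tcggatccgtctgagcttggctAT
Group 114, Gm29371, 3′ part: TCgtttcccggccaacgcacca
Group 140, promoter window of Gm46404: gtttccgtagtgtagtggTTATCA

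Group 109 matched the Mir127 hairpin over its first 22 bases at chr12:109592888-109592909 (GRCm38, plus strand), followed by AT. It had 10055 reads in DMSO and 9249 in PD03, a ratio of 0.829 (0.806 to 0.853). Group 114, one of the tags from TC to CCA described above, matched the lincRNA Gm29371 only in its last 20 bases. It had 8733 and 10089 reads (1.04, 1.01 to 1.07). Group 140 begins like a valine tRNA and had 334 RPM in both libraries (0.999, 0.966 to 1.03), while 46.5% of DMSO and 73.6% of PD03 reads with its first 18 bases ended at 29 nt.

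Extended miRNAs made up most of the last-base class. Leaving out Mir6240 and Mir5099, 23 groups matched a miRNA hairpin except at the last base. Of these, 12 ended in an added A (0.940, 0.929 to 0.952) and 11 in an added T (0.890, 0.878 to 0.902), which stands for U in the RNA. No group ended in an added C or G. None was lower by 1.5-fold and 1 was higher, an A22T form of the neural Mir124a-1, with 1496 reads in DMSO and 2725 in PD03 (1.64, 1.54 to 1.75), beside 22.4% lower and 5.56% higher of all 504 groups. The tag of Mir124a-1 with the hairpin's own base moved alike, from 3945 to 8391 reads (1.92).

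The share of the added form was set against the tag that was 1 base shorter and the tag with the hairpin's base. Its median over the 23 groups was 8.41% in DMSO and 8.48% in PD03, with a range of 1.45% to 84.1% in DMSO and 1.35% to 70.3% in PD03. It was higher in PD03 in 8 of 23 groups. Counting intervals were apart in 9 groups, of which 3 were higher and 6 lower in PD03. Group 89 (Mir320 A23T, chr14:70443557-70443579, GRCm38, plus strand) had 5514 reads in DMSO and 5372 in PD03, an added share of 8.18% (7.97 to 8.39) and 9.09% (8.86 to 9.32). Mir341 C22T had the widest change, 84.1% (83.4 to 84.9) against 66.2% (65.2 to 67.1). Its 1-base-shorter tag went from 1460 to 3192 reads (1.97), while the tag with the T went from 7805 to 6280 (0.725). The hairpin's own base at that place had only 12 and 15 reads.

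Groups with the mismatch at the last base and elsewhere differed in how often the tag with the reference base was read. The reference is the nearest transcript, which was not shown to be the source of the tag. With the mismatch at another base, the tag with the reference base made up under 1% of the reads of both forms in 29 of 30 groups, with a median of 0.0135%. With the mismatch at the last base it made up at least 1% in 20 of 25 groups, with a median of 54.0%. The exceptions were Mir292 in the first class and Mir341, Mir6240, Gm42418, Mir24-1 and Mir292 in the second. The 30 groups of the first class are not independent, since several overlap at the same base of Gm42418, Mrpl33, Lars2 or AA474408.

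Group 4 had T15G against the Mir6240 hairpin, at chr5:114851994-114852013 (GRCm38, plus strand). It had 7826 RPM in DMSO and 8223 RPM in PD03, a ratio of 1.05 (1.04 to 1.06), the highest of the 15 largest groups. The reference form had 29 reads in DMSO and 17 in PD03, against 147684 and 172230. In all, 4 groups were nearest to Mir6240 or Mir5099, with a joint ratio of 1.04 (1.04 to 1.05), but group 4 held most of their reads. Only 1 of the 4 groups was above 1, and their median was 0.970 and their lowest ratio 0.731. The hairpins are named here only as the nearest annotated letters.

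Gm42418, a lincRNA on chromosome 17 with letters like the small-subunit rRNA, was the nearest transcript of 13 groups, and all 13 were lower in PD03 per clean read, 12 of them per read of 20 to 24 nt. Their joint ratio was 0.695 (0.689 to 0.700), with a median of 0.612 and a range of 0.429 to 0.840, and 7 were lower by 1.5-fold (5 per read of 20 to 24 nt), beside 22.4% of all 504 groups, or 37 of them on the second scale. The 13 groups are not independent, because they differed from Gm42418 at only 3 bases of the transcript. For bases 446 and 501, the reads given are those of the most frequent tag of each group only. At base 446, 7 groups had G for T, and these tags had 51595 reads in DMSO and 41132 in PD03. The same tags with the transcript's T had 11 and 10 reads. At base 501, 4 groups had G for A, and their most frequent tags had 18778 and 15164 reads against 2 and 0. At base 1153, 2 groups had C for T, among them group 397 (T16C), with 1951 reads in DMSO and 929 in PD03, a ratio of 0.429 (0.396 to 0.464) and the fifth lowest of all. Group 14 (T11G) was the largest, at 2888 and 2287 RPM (0.792, 0.782 to 0.802).

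The 28 groups that were higher by 1.5-fold were rich in G and C. Their median GC content was 79.2%, beside 57.1% over all 504 groups and 52.2% in the 113 lower groups, and they held 2.15% of the member reads, beside 17.0% in the lower groups. Of the 28, 16 were among the 91 groups of at least 75% GC, of which 13 were lower by 1.5-fold. The 5 highest groups, and the 3 of the 5 lowest not yet shown, are given because they mark the ends of the range. Capitals mark the bases after the first 18 or, in groups 198 and 397, the mismatch:

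Group 497: aagcagaagaattgctgaTA
Group 315: cgcgccgcggctggacgaGGCG
Group 198: agaagCcggcgggagccccg
Group 280: tccggactaaatacacggAAA
Group 300: ccgcggctggacgaggcgCCG
Group 366: ctttaacgaggatccattGGAGGG
Group 378: gacgaggtggccgagtggTTA
Group 397: ggcccacggccctggCggagcgct

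Group 497 had the highest ratio, with 346 reads in DMSO and 1681 in PD03, or 18.3 and 80.3 RPM (4.38, 3.90 to 4.93). It had no near match and no family, and its origin was not tested. Its sum of 2027 reads lay just above the minimum of 2000, and most of them were PD03 reads. With its DMSO count in both libraries it would not have been a member, so its high ratio is tied to that minimum. At a minimum of 5000 reads, 5 of 233 groups were higher by 1.5-fold and 52 lower. Group 280 had 1045 and 3794 reads (3.27, 3.05 to 3.51). Group 198 had 1812 and 6763 reads (3.36, 3.19 to 3.54) and differed by G6C from a transcript of Mrpl33, at chr5:31614160-31614179 (GRCm38, plus strand). The tag with the reference base had 0 reads in both libraries. Group 215, which begins 1 base upstream with the same mismatch and end, had 3425 and 3999 reads. The joint ratio of these 2 groups was 1.85 (1.79 to 1.91). Group 366 had 2384 and 966 reads (0.365, 0.338 to 0.394), while tags of 27 nt with the same first 18 bases had 2508 and 3195 (1.15).

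Groups 315 and 300 came from 1 family of 11 members, whose joint ratio was 1.62. Group 315 had 819 reads in DMSO and 3285 in PD03 (3.61, 3.35 to 3.91), and group 300 had 1031 and 3315 (2.90, 2.70 to 3.11). High values in this family were found at several starts and ends, but not at every end of the same start. The tag of group 315 ended at 22 nt, and tags of 19 nt with the same start had 855 and 689 reads (0.726). A second GC-rich family, of 9 members, stood at 1.57 with the same unevenness, since its most frequent tag of 22 nt had 6561 and 18747 reads (2.57) and the tag 1 base longer 2888 and 2133 (0.665).

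Joined by overlap of at least 18 bases, the 878 members formed 228 families, of which 108 had 1 member. The 10 largest families held 53.3% of the member reads and the 20 largest 69.2%. In 30 families some tag did match a transcript perfectly, but these held only 108 members and 7.21% of the member reads. Of the 47 families with at least 5 members, 43 had a joint ratio under 1 (27 per read of 20 to 24 nt), 11 were lower by 1.5-fold (23.4%) and 2 were higher (4.26%). These shares were near the 21% and 4.63% of all 713 groups, which hold the same members too. Per read of 20 to 24 nt, 1 family was lower and 3 were higher. In 26 of the 47 more reads shared a 5′ start than a 3′ end, and in 21 it was the reverse. The median share of the leading start was 52.8% and of the leading end 49.7%, each judged by 12 bases.

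By last base, 41.0% of the members ended in G, 28.9% in A, 15.3% in T and 14.8% in C, beside 28.5%, 26.2%, 30.4% and 15.0% of the matched tags. The ratio was 0.840 for members that ended in G, 0.770 for A, 0.721 for T and 0.874 for C. The matched tags ran in another order, with 0.730 for G, 0.855 for A, 0.850 for T and 1.01 for C. An end of at least 4 T, the signal at which RNA polymerase III stops, was found in 7 members (0.797%) with a ratio of 0.816 (0.807 to 0.826), beside 10 matched tags (2.34%). The A box, the internal promoter element in the 5′ part of tRNA genes, was found on the read strand in 98 members (11.2%), beside 5.84% of matched tags and 4.94% of all tags of 20 to 24 nt. A match of these letters is a description and not a site.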

How the data were processed

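Small RNA of 2 libraries was analysed, 1 for J1 mESCs with DMSO and 1 for PD03. The authors gel purified small RNA, ligated adapters, sequenced, removed low-quality and adapter reads, collapsed identical reads and deposited, per distinct tag, a raw count of clean reads. The deposited counts carry no alignment or normalization, and the submitters' processing notes name the build mm9. The last line of each file, a total without a tag, was left out.

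Tags were matched to 141767 GENCODE M21 transcripts (GRCm38) on the transcript strand, and to RefSeq miRNAs and promoter windows, with Python 3.11.15, numpy 2.4.6, pandas 2.3.3 and scipy 1.17.1. No genome sequence was used. Each group was placed by its most frequent tag, in the order RefSeq match, whole-length match with 1 mismatch, 5′ part and then 3′ part of at least 18 bases. Where several transcripts fit with 1 mismatch, miRNA hairpins came first, and within a biotype the match with the mismatch nearest the 3′ end. Families joined tags of at least 500 reads that share 18 bases. Matching and intervals were tested on simulated data. Alternatives used edgeR 4.0.16 (TMM) and DESeq2 1.42.0 (size factors) in R 4.3.3. With 3 reads as a floor, depth reached 0.159 RPM in DMSO and 0.143 RPM in PD03.

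The members, lists and folds were chosen with earlier results of these data known. Named were the 15 groups with the most reads, the 5 highest and 5 lowest ratios and the largest group of each source class. Other groups that are named (32, 37, 53, 102, 108, 170, 215 and 329) were chosen after values were seen. So were the Mir124a-1 and Mir341 forms, the families, mixed bases, hairpin additions and length windows.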

Additional observations from a re-analysis of the deposited data

How the results depend on the processing

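No paired analysis was possible because each treatment had 1 library. The summed ratio of 0.816 became 0.989 per read of 20 to 24 nt, 0.936 per read matching a miRNA hairpin, 0.901 with TMM factors, 0.906 with DESeq2 size factors, 0.814 and 0.815 with minimums of 1000 and 5000 reads, and 0.832 without tags that match either strand. The median log2 ratio of -0.29 became -0.01, -0.09, -0.14 and -0.14 under the first 4 of these, which change only the scale. DESeq2 set both libraries to equal size, since the median ratio of raw reads was 1 over tags with at least 10 reads in both. In RPM that ratio is 0.901. Of the groups higher by 1.5-fold, 28 became 51 per read of 20 to 24 nt, 5 at a minimum of 5000 reads and 12 at a fold of 2. Of the groups lower by 1.5-fold, 113 became 37 per read of 20 to 24 nt, 54 per hairpin read, 67 with TMM, 64 with DESeq2 size factors, 188 and 52 at minimums of 1000 and 5000, 245 without merging and 21 at a fold of 2. The members' share of all 20 to 24 nt reads of both libraries, 46.4%, became 50.1% and 39.6% at those minimums and 43.1% without matches on either strand. The number of groups, 504, became 826 and 233 at those minimums and 878 without merging. Near matches, 68 groups, became 129 and 35 at those minimums and 107 with 2 mismatches. The other 18 values stayed within 1.5 times the values in the report or, for the median log2 ratio, within -0.34 to -0.22. That interval came from the ranks of the group ratios, as if groups were independent, and is not counting error. Each treatment had 1 library of pooled RNA, so no spread between cultures can be given.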
